A study of Mus musculus with 21 samples.

Results

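Interferon-stimulated genes were followed across 21 RNA-seq libraries of 2 mouse cell lines. The set is 35 genes given by name, and all 35 have a row among the 24263 gene symbols of the count table. BV2 is an immortalised microglial line of C57BL/6 origin, and 1C11NE cells are 1C11 stem cells of strain 129 differentiated for 12 days with dibutyryl cAMP, dimethyl sulfoxide and 1-methyl-1-cyclohexanecarboxylic acid, so every 1C11NE group carries those agents. Each of the 7 groups holds 3 libraries. BV2_ACR and BV2_PBS are BV2 cells given acrylamide (1 mM) or phosphate-buffered saline for 24 h. ACR-CM, PBS-CM+ACR and PBS-CM are 1C11NE cells in medium conditioned by acrylamide-exposed BV2 cells, in medium from saline-treated BV2 cells with acrylamide added, and in medium from saline-treated BV2 cells alone. ACR and PBS are 1C11NE cells given acrylamide or saline with no BV2 medium. Acrylamide was at 1 mM in PBS-CM+ACR and ACR, and exposure lasted 24 h in every 1C11NE group. Each line is a single established line, the labels name different base media for the lines, and no source used here says if the acrylamide was taken out of the medium of ACR-CM, so BV2 products, base medium and leftover acrylamide cannot be told apart.

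Interferons bind receptors at the cell surface, and the receptor kinases JAK1 and TYK2 phosphorylate STAT proteins, among them STAT2, which joins IRF9 in a complex that enters the nucleus. The complex binds interferon-stimulated response elements in promoters and switches on genes whose products sense viral nucleic acid, degrade or block viral RNA, hold virions at membranes, or feed back on the pathway. Microglia both make and answer type I interferon, and neurons carry the receptor and can answer it with a narrower set of genes.

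Library totals ran from 2762287 to 7391991 counts. Levels below are CPM, counts brought to a common library size with TMM factors (trimmed means of M-values) over all 21 libraries, given in replicate order, and changes are log2 values ± SE from edgeR's quasi-likelihood test with Benjamini-Hochberg adjustment over all genes of a fit. Genes with an adjusted p under 0.05 were called. Nothing states that replicates were separate cultures, so p-values measure the spread between these libraries, which may be technical. On the first principal component of the 15 libraries of 1C11NE cells (43.1% of the variance), replicate 1 of PBS-CM and replicate 3 of PBS-CM+ACR lay at -27.2 and -17.4, among the libraries without BV2 medium (-50.2 to -5.94), while the other 7 libraries with BV2 medium lay between 14 and 41.1. The labels were kept as given, whether these 2 libraries match their labels was not tested, and counts of calls that involve their groups are given with and without them. The neuronal label of 1C11NE rests on few transcripts here: Th and Dbh have no row in the table, and the 13 listed neuronal and noradrenergic genes that do sum to 24.1 ± 0.747 CPM in PBS-CM and 24.0 ± 5.14 CPM in PBS (SD, n = 3 each). The same 13 genes summed higher in BV2, at 143 ± 13.3 CPM in BV2_ACR and 106 ± 4.74 CPM in BV2_PBS. Most of that was Uchl1 (131 and 98.5 CPM, against 0.355 CPM in PBS), and 7 of the 13 were at 0 in BV2_PBS. Microglial markers sum to 8040 ± 566 CPM in BV2_ACR and 8470 ± 435 CPM in BV2_PBS (SD, n = 3 each).

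Promoter sequence was not used to select the members, and a response element core was found in some of them. RefSeq windows (build GRCm38.p6) of 300 bases, from 250 before a gene's start to 50 after it, were at hand for 25 of the 35 genes. The core of the interferon-stimulated response element, GAAA and GAAA with any 2 bases between them (TTTC and TTTC on the other strand), was found in 14 of these 25 genes (56.0%), against 3.99% of the 27025 genes with a window. The gamma-activated site TTCNNNGAA, which reads the same way on both strands, was found in 6 of 25 (24.0%), against 9.55% of all genes with a window. Both are literal matches and not measured binding. Windows are shown for 4 of the 5 genes that rose in PBS-CM (Rtp4 is named only) and for Xaf1, the gene with the clearest change in BV2. Capitals mark response element cores, and adjoining or overlapping cores run together. The windows are chr4:156200769-156201068 (minus strand), chr7:141010695-141010994 (minus strand), chr8:71537423-71537722 (minus strand), chr5:120907476-120907775 (minus strand) and chr11:72301379-72301678 (plus strand), in the order printed.
Isg15: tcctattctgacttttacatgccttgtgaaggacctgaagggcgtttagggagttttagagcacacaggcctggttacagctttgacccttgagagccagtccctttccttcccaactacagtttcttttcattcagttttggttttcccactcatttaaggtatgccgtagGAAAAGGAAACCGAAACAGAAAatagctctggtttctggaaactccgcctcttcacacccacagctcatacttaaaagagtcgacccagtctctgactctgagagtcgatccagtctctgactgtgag
Ifitm3: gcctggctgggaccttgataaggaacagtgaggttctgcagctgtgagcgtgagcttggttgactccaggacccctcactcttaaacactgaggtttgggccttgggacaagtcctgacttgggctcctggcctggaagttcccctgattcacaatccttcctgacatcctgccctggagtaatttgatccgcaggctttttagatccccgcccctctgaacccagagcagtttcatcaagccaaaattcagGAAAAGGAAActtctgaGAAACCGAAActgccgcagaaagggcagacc
Bst2: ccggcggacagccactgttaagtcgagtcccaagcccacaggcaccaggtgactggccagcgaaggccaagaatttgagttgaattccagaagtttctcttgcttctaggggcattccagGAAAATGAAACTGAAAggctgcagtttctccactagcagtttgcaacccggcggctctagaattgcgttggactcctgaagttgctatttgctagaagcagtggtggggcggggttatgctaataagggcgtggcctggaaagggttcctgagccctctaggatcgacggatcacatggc
Oas1a: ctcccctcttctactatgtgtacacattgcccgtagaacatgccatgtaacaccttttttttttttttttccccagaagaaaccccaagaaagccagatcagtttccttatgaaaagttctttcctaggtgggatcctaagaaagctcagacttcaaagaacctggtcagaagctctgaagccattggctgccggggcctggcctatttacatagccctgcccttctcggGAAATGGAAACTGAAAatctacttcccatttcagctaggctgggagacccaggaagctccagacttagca
Xaf1: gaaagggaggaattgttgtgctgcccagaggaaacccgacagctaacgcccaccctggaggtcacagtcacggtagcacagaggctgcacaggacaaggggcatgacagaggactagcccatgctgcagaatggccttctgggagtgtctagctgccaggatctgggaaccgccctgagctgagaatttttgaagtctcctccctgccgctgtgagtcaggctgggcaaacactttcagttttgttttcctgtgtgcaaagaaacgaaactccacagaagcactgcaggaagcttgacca
Isg15 holds 3 overlapping cores, the first starting at position -78 from the gene start. Bst2 holds 2 overlapping cores from position -130, and Oas1a 2 from position -20. In Ifitm3 the 2 cores lie after the start, at positions 3 and 20. Xaf1 holds no match to these letters in its window.

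Medium from saline-treated BV2 cells raised 5 interferon-stimulated genes in 1C11NE cells and lowered none. Of the 35 genes, 27 had enough counts to be tested in 1C11NE. Set against PBS, PBS-CM raised 5 of the 27 (18.5%), where the background of all 12550 genes tested was 2.49% called higher and 2.06% called lower. The members were chosen with earlier results of these data known. Here and below, their shares beside those of all genes are therefore a description and no separate support. Of 42 tested interferon-stimulated genes outside the members, 2 were called higher and 1 lower. The median change of the 27 was 0.54, against -0.00 over all genes tested, and 14 of the 27 lay higher in all 3 PBS-CM libraries than in any PBS library, where 13.7% of all genes did. Of those 14, the test called 5. DESeq2 called 7 members higher and 0 lower, adding Irf9 and Ifi27, among 1282 genes of any kind. Among the 21 tested members with a promoter window, the 11 that hold the response element core had a median change of 0.61 and 4 calls, and the 10 without it a median of 0.32 and 0 calls; the difference was not tested.

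Both membrane restriction factors rose. Ifitm3, which blocks fusion of enveloped viruses in endosomes, had 432, 607 and 696 CPM in PBS-CM, against 189, 208 and 245 CPM in PBS. Its lowest PBS-CM library lay well above its highest PBS library. The change was 1.43 ± 0.24 (2.69-fold, adjusted p = 0.0038). Bst2 encodes tetherin, which holds budding virions at the cell surface. It had 72.7, 138 and 145 CPM in PBS-CM, against 36.5, 38.2 and 50.4 CPM in PBS, a change of 1.51 ± 0.30 (adjusted p = 0.011). PBS-CM replicate 1 was the lowest of its group for both genes, and the groups did not overlap.

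Of the ubiquitin-like modifier and other induced proteins, 2 of 7 rose. Isg15, a ubiquitin-like protein that is joined to newly made proteins, had 36.9, 45.1 and 64.5 CPM in PBS-CM, against 21.7, 17.5 and 24.4 CPM in PBS. The change was 1.20 ± 0.22 (2.30-fold, adjusted p = 0.0057). Rtp4, a receptor transport protein that also acts against RNA viruses, had 2.71, 6.60 and 6.06 CPM in PBS-CM, against 1.60, 1.04 and 2.03 CPM in PBS. Its change was 1.76 ± 0.37 (adjusted p = 0.014), from a low level. Ifi27, Ifi35, Ifi44, Xaf1 and Lgals3bp did not pass the edgeR test, with changes from -0.20 (Lgals3bp) to 1.35 (Ifi44). Of these, DESeq2 called Ifi27 (0.68 ± 0.22, adjusted p = 0.031).

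Among the OAS enzymes, which make 2-5A and so activate RNase L, and the related RNA-binding kinase PKR, 1 of 3 tested genes rose. Oas1a had 4.64, 2.92 and 2.85 CPM in PBS-CM, against 1.07, 1.30 and 0.406 CPM in PBS (1.79 ± 0.44, adjusted p = 0.029). All 3 PBS-CM libraries lay above all 3 PBS libraries, although Oas1a belongs to a family of near copies whose reads may have been split in counting, as do the Gbp, Ifit, Ifitm and Mx genes. Oasl2 (0.97 ± 0.36) and Eif2ak2, the gene of PKR (0.54 ± 0.19), also lay higher in every PBS-CM library without passing the test (adjusted p = 0.11 and 0.094).

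In the signalling group, Irf9, the DNA-binding part of the complex that holds STAT2, had 6.19, 6.60 and 6.24 CPM in PBS-CM, against 2.80, 4.27 and 1.63 CPM in PBS. The groups did not overlap, and the change of 1.07 ± 0.33 missed the threshold in edgeR (adjusted p = 0.069). DESeq2 called Irf9 (1.09 ± 0.36, adjusted p = 0.035). Irf7, which drives interferon alpha genes, changed by 0.78 ± 0.31 (adjusted p = 0.13) and Stat2 by -0.06 ± 0.17 (adjusted p = 0.84). None of the 5 nucleic acid sensors and their ligase (Ddx58, Ifih1, Dhx58, Zbp1 and Trim25) was called, with changes from -0.30 to 0.73. The ADP-ribosyltransferase genes Parp9 and Parp14 and the ligase partner Dtx3l were not called either (0.59, -0.48 and -0.37). Parp9 and Dtx3l overlap on opposite strands, and strand use in counting is not given in the sources used here.

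**Figure D1:**
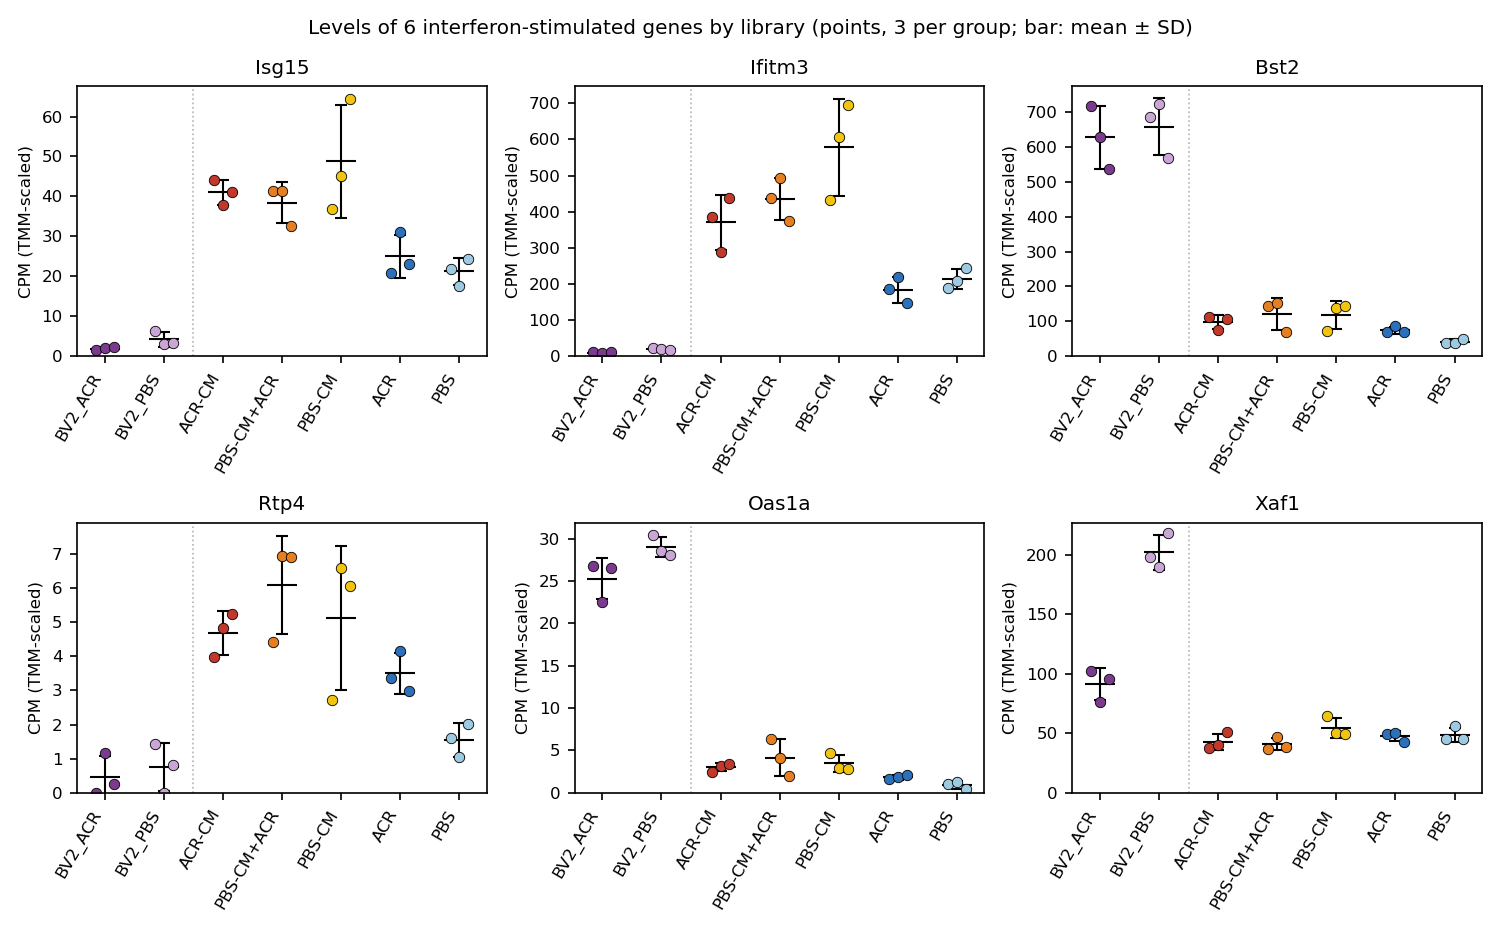
CPM (TMM-scaled, linear axes from 0) of 6 interferon-stimulated genes in each library of the 7 groups, with points for the 3 libraries and a bar for the mean ± SD. Isg15, Ifitm3, Bst2, Rtp4 and Oas1a lie higher in all 3 PBS-CM libraries than in the 3 PBS libraries, and Xaf1 is lower in BV2_ACR than in BV2_PBS.

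The calls differed in how much they depended on single libraries. Ifitm3 and Isg15 stayed called without any of the 6 libraries in turn (highest adjusted p 0.033 and 0.043). Bst2 lost its call without replicate 1 or 2 of PBS (adjusted p = 0.072 and 0.071) and without replicate 2 or 3 of PBS-CM (0.064 and 0.067). Rtp4 lost its call without the same libraries (0.068, 0.095, 0.089 and 0.079). Oas1a lost its call without any PBS library (0.11, 0.085 and 0.084) and without PBS-CM replicate 2 or 3 (0.086 and 0.078). Leaving out any 1 of the 4 libraries named for Bst2 left 2 members called among 106 to 142 genes of any kind, and leaving out replicate 1 of PBS-CM left 10 among 3233, against 571 genes with every library.

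With the 2 libraries that stood apart left out, more members were called and in both directions. Those 2 libraries were picked from the first principal component of these same counts, as lying among the libraries without BV2 medium. More calls without them were therefore built into the choice and are no separate support. PBS-CM then raised 10 of the tested members and lowered 3, among 4479 genes called in all, against 571 of the 12550 tested with every library. Shares of all genes by direction were not computed for this setting, so neither the increases nor the decreases can be set against a background. The added increases were Irf9 (1.09), Ifi27 (0.88), Eif2ak2 (0.66), Gbp3 (0.66) and Ifi35 (0.61). The decreases were Parp14 (-0.73 ± 0.20, adjusted p = 0.0076), Trim25 (-0.72 ± 0.24, adjusted p = 0.026) and Samhd1 (-0.51 ± 0.18, adjusted p = 0.038). Parp14 had 66.1, 40.7 and 42.8 CPM in PBS-CM, against 65.6, 84.2 and 57.3 CPM in PBS, so that replicate 1 alone lay within the range of PBS. Trim25, a ligase that activates the RNA sensor RIG-I, had 45.2, 20.9 and 23.0 CPM in PBS-CM, against 35.5, 43.7 and 29.0 CPM in PBS. Samhd1, which cleaves deoxynucleotides, had 134, 76.6 and 68.1 CPM in PBS-CM, against 118, 106 and 83.3 CPM in PBS. In PBS-CM+ACR replicate 3 stood apart the same way, with 54.7 CPM of Parp14 against 29.4 and 22.7 in the other 2 libraries, 48.4 CPM of Trim25 against 19.9 and 20.5, and 113 CPM of Samhd1 against 51.6 and 69.8.

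The size of a member's change went with the length of its transcript. The 6 tested members with under 2000 exon bases had a median change of 1.32 in PBS-CM against PBS, and the 21 longer ones 0.50. Over all genes tested that have a length the medians were 0.35 for the 1673 short genes and -0.05 for the 10132 longer ones. Across genes, which are not independent and share the same libraries, Spearman's rho with length was -0.489 for the 27 members and -0.341 for 11805 genes. Parp14, Samhd1 and Trim25 have 9306, 9150 and 5754 exon bases. Other long members went the other way. Ifih1, Oasl2 and Irf9, with 8165, 6374 and 5386 exon bases, lay higher in every PBS-CM library than in any PBS library. The ribosomal protein genes, short transcripts that are no members, moved with this order: they took 7.54, 12.7 and 14.4% of counts in PBS-CM, against 7.55, 6.78 and 8.60% in PBS, and their part in the result was not tested. With an offset for length and GC content, an alternative chosen after seeing the data, 7 members were called higher and none lower. Ifitm3 was then at 0.96 ± 0.13, Isg15 at 0.76 ± 0.15, Bst2 at 1.12 ± 0.21, Rtp4 at 1.46 ± 0.34 and Oas1a at 1.56 ± 0.46, with Irf9 (1.23) and Irf7 (0.96) added.

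**Figure D2:**
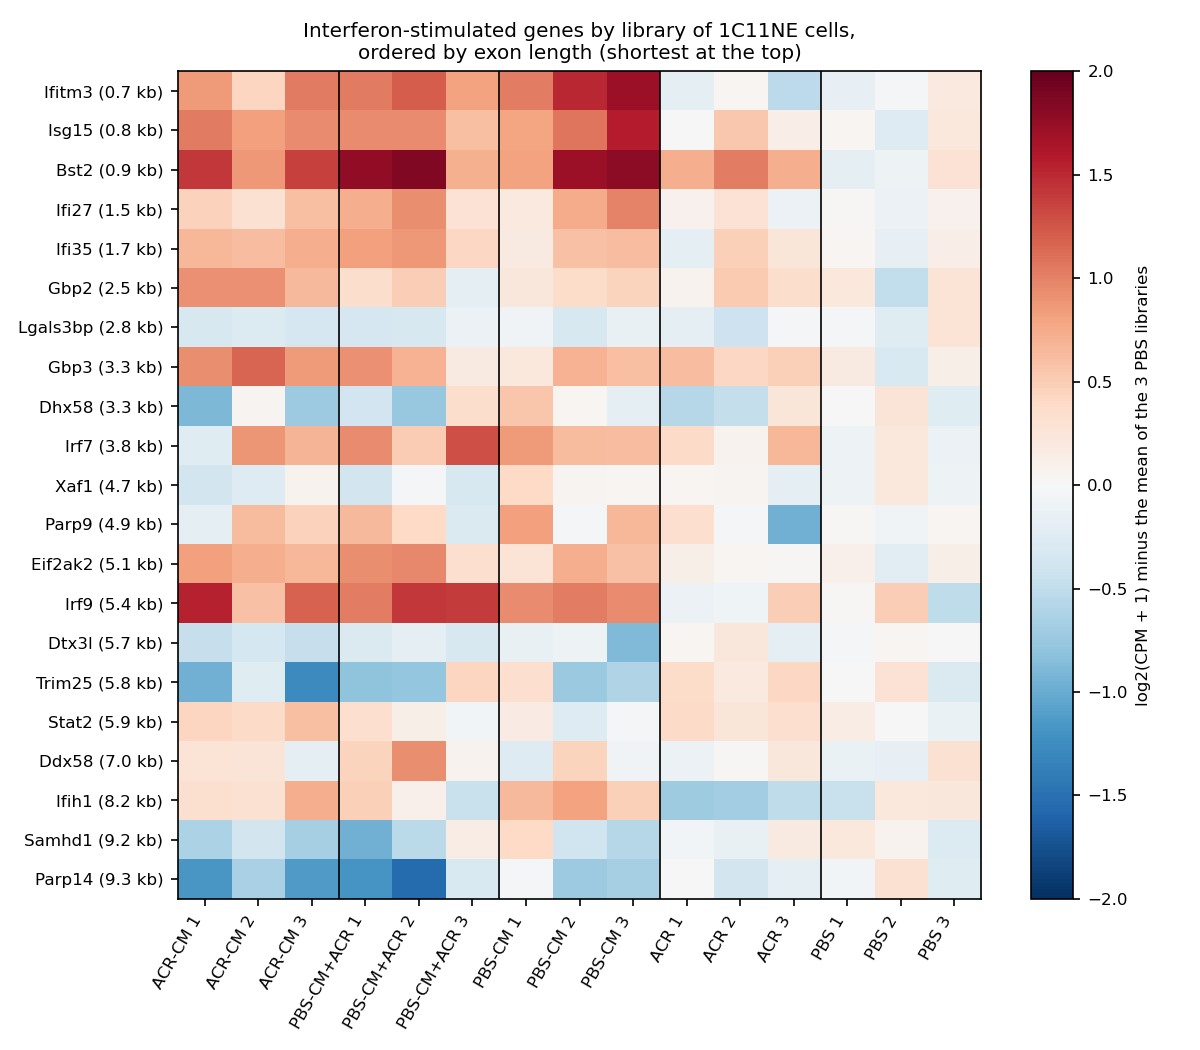
Each cell is log2(CPM + 1) of a library minus the mean of the 3 PBS libraries, for the 21 tested members with a mean of at least 5 CPM over the 1C11NE groups, ordered by exon length with the shortest at the top. Short members at the top are red across the libraries with BV2 medium, while Parp14, Samhd1 and Trim25 near the bottom are blue in most of them except PBS-CM 1 and PBS-CM+ACR 3.

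Transcripts that mark microglia were low in the cells given BV2 medium. The 20 listed microglial markers with a row summed to 63.2, 60.2 and 70.4 CPM in PBS-CM, against 51.8, 53.5 and 44.3 CPM in PBS. The PBS-CM sum was 0.763% of that in BV2_PBS and the PBS sum 0.589%. Aif1, Ptprc, Spi1, C1qa, C1qb, C1qc and Ly86 were at 0 in all PBS-CM libraries. Ctss, a lysosomal protease abundant in microglia, had 34 counts over the PBS-CM libraries (2.04 ± 0.917 CPM) and 0 over the PBS libraries, against 2490 ± 125 CPM in BV2_PBS (SD, n = 3 each). Isg15 and Ifitm3 averaged 4.17 and 20.7 CPM in BV2_PBS, below their 21.2 and 214 CPM in PBS, while Bst2 and Oas1a were higher in BV2_PBS. Of the listed astrocyte and oligodendrocyte markers, 8 have a row, and their sum was 37.6 ± 2.27 CPM in PBS-CM and 92.0 ± 8.94 CPM in PBS (SD, n = 3 each), most of it Slc1a3 (30.9 and 84.4 CPM). The part of these marker genes in the changes of the members was not tested, and in bulk samples fewer cells of a type and less RNA per cell cannot be told apart.

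With acrylamide present, BV2 medium raised 3 interferon-stimulated genes by edgeR, of which Ifitm3 alone was also called by edgeR without acrylamide. The interaction of acrylamide with BV2 medium called 0 members, so no member was shown to differ between the 2 settings. Bst2, Isg15, Rtp4 and Oas1a, called without acrylamide, were not called here. DESeq2 put their changes at 0.70, 0.61, 0.80 and 1.15 (adjusted p = 0.16, 0.10, 0.20 and 0.12). PBS-CM+ACR set against ACR raised 3 of 27 members (11.1%) and lowered none, where 1.95% of all genes tested were called higher and 2.01% lower. The median change was 0.52, against -0.00 over all genes. DESeq2 called 4 members, all higher, adding Zbp1 (2.40 ± 0.76, adjusted p = 0.03). Zbp1 had 2.85, 6.34 and 2.02 CPM in PBS-CM+ACR, against 0.448, 1.62 and 0 CPM in ACR, which are few counts. Ifitm3 had 438, 492 and 374 CPM in PBS-CM+ACR, against 186, 219 and 147 CPM in ACR (1.22 ± 0.24, adjusted p = 0.010). Irf9 had 6.64, 9.00 and 8.93 CPM in PBS-CM+ACR, against 2.46, 2.52 and 4.27 CPM in ACR (1.40 ± 0.35, adjusted p = 0.034). Eif2ak2, whose product PKR halts translation when it meets double-stranded RNA, had 65.5, 66.7 and 43.2 CPM in PBS-CM+ACR, against 36.7, 35.0 and 34.6 CPM in ACR (0.70 ± 0.19, adjusted p = 0.046). None of the 3 genes called by edgeR, picked by the test, overlapped between the groups. The share of all genes without overlap was not computed for this comparison. The microglial marker sum was 69.7 to 81.3 CPM in PBS-CM+ACR and 59.8 to 67.0 CPM in ACR, and its part in the result was not tested.

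Each of these edgeR calls was lost without some single libraries. Ifitm3 missed the threshold without ACR replicate 3 (adjusted p = 0.054) or PBS-CM+ACR replicate 2 (0.051). Irf9 missed it without ACR replicate 1 or 2 (0.13 and 0.098) or PBS-CM+ACR replicate 1 or 2 (0.059 and 0.14). Eif2ak2 missed it without any ACR library (0.12, 0.097 and 0.13) and without PBS-CM+ACR replicate 1 or 2 (0.15 and 0.19). Eif2ak2 also missed it with no filter on low counts (0.061). With a block for replicate number, Irf9 (0.071) and Eif2ak2 (0.086) missed it too. The count was 1 without ACR replicate 1 or 3 or PBS-CM+ACR replicate 1, and 0 without PBS-CM+ACR replicate 2, where 154 to 180 genes of any kind were called, against 497 with every library. Without PBS-CM+ACR replicate 3 it was 12 (10 higher and 2 lower), among 1610 genes called. With both libraries that stood apart left out it was 12 higher and 3 lower, among 3133 genes called, and the 3 lower were again Parp14 (-1.23), Trim25 (-1.15) and Samhd1 (-0.73). Shares of all genes by direction were not computed for these refits. A fit of the compared libraries alone called 0 members.

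Direct acrylamide called no interferon-stimulated gene in 1C11NE cells. In ACR against PBS, 0 of 27 members were called, where 0.462% of all genes were called higher and 0.717% lower. DESeq2 also called 0 members, 4 members had an unadjusted p below 0.05 and the median change was 0.04. Bst2 had 68.6, 85.4 and 69.0 CPM in ACR, against 36.5, 38.2 and 50.4 CPM in PBS. Every ACR library was above every PBS library, and the change was 0.82 ± 0.30 (adjusted p = 0.24). Bst2 was called with no filter on low counts, with the compared libraries alone, and without the 2 libraries that stood apart (0.83 ± 0.17, adjusted p = 0.0068). Those 2 libraries are in neither ACR nor PBS. The change stayed near 0.82, and the SE fell from 0.30 in a fit that shares its spread over all 1C11NE groups. Rtp4, at 3.36, 4.15 and 2.99 CPM in ACR against 1.60, 1.04 and 2.03 CPM in PBS, changed by 1.20 ± 0.39 (adjusted p = 0.18). Ifih1, which encodes the long double-stranded RNA sensor MDA5, had 2.46, 2.52 and 2.99 CPM in ACR against 3.20, 5.57 and 5.69 CPM in PBS (-0.85 ± 0.32, adjusted p = 0.27).

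Within BV2 medium, acrylamide moved no member past the threshold. PBS-CM+ACR against PBS-CM called 0 of 27 by edgeR and 0 by DESeq2, with 2 members at an unadjusted p below 0.05, where edgeR called 0.175% of all genes higher and 0.199% lower. The interaction, the acrylamide effect with BV2 medium minus that without it, called 0 members and 0 genes of any kind by edgeR. DESeq2 called 0 members there, and at an unadjusted p below 0.05 there were 0 members and 347 genes. Without the 2 libraries that stood apart, PBS-CM+ACR against PBS-CM and the interaction each called 0 members by edgeR too. ACR-CM against PBS-CM called 0 of 27 by edgeR and by DESeq2, with 4 at an unadjusted p below 0.05, against 0.446% of all genes called higher and 0.478% lower. The median of the 27 was -0.20, against -0.03 over all genes.

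Ifitm3 had 385, 288 and 439 CPM in ACR-CM, against 432, 607 and 696 CPM in PBS-CM (-0.65 ± 0.24, adjusted p = 0.24). Its groups touched, with 1 ACR-CM library above the lowest PBS-CM library. It was called lower with the length and GC offset (-0.60 ± 0.13, adjusted p = 0.016) and without the 2 libraries that stood apart (-0.83 ± 0.20, adjusted p = 0.049). Stat2, the STAT that joins IRF9, was higher in each ACR-CM library (19.1, 18.6 and 21.7 CPM) than in any PBS-CM library (15.7, 11.5 and 13.6 CPM), at 0.55 ± 0.17 (adjusted p = 0.16). Gbp2, an interferon-induced GTPase that attacks vacuoles of intracellular pathogens, had 23.9, 24.0 and 19.8 CPM in ACR-CM against 14.5, 16.0 and 16.9 CPM in PBS-CM (0.51 ± 0.23, adjusted p = 0.35). ACR-CM against PBS-CM+ACR called 0 of 27 by edgeR and by DESeq2, with 2 members at an unadjusted p below 0.05. In that comparison edgeR called 0.0159% of all genes, all lower. Without the 2 libraries that stood apart, edgeR called 0 members there too.

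**Figure D3:**
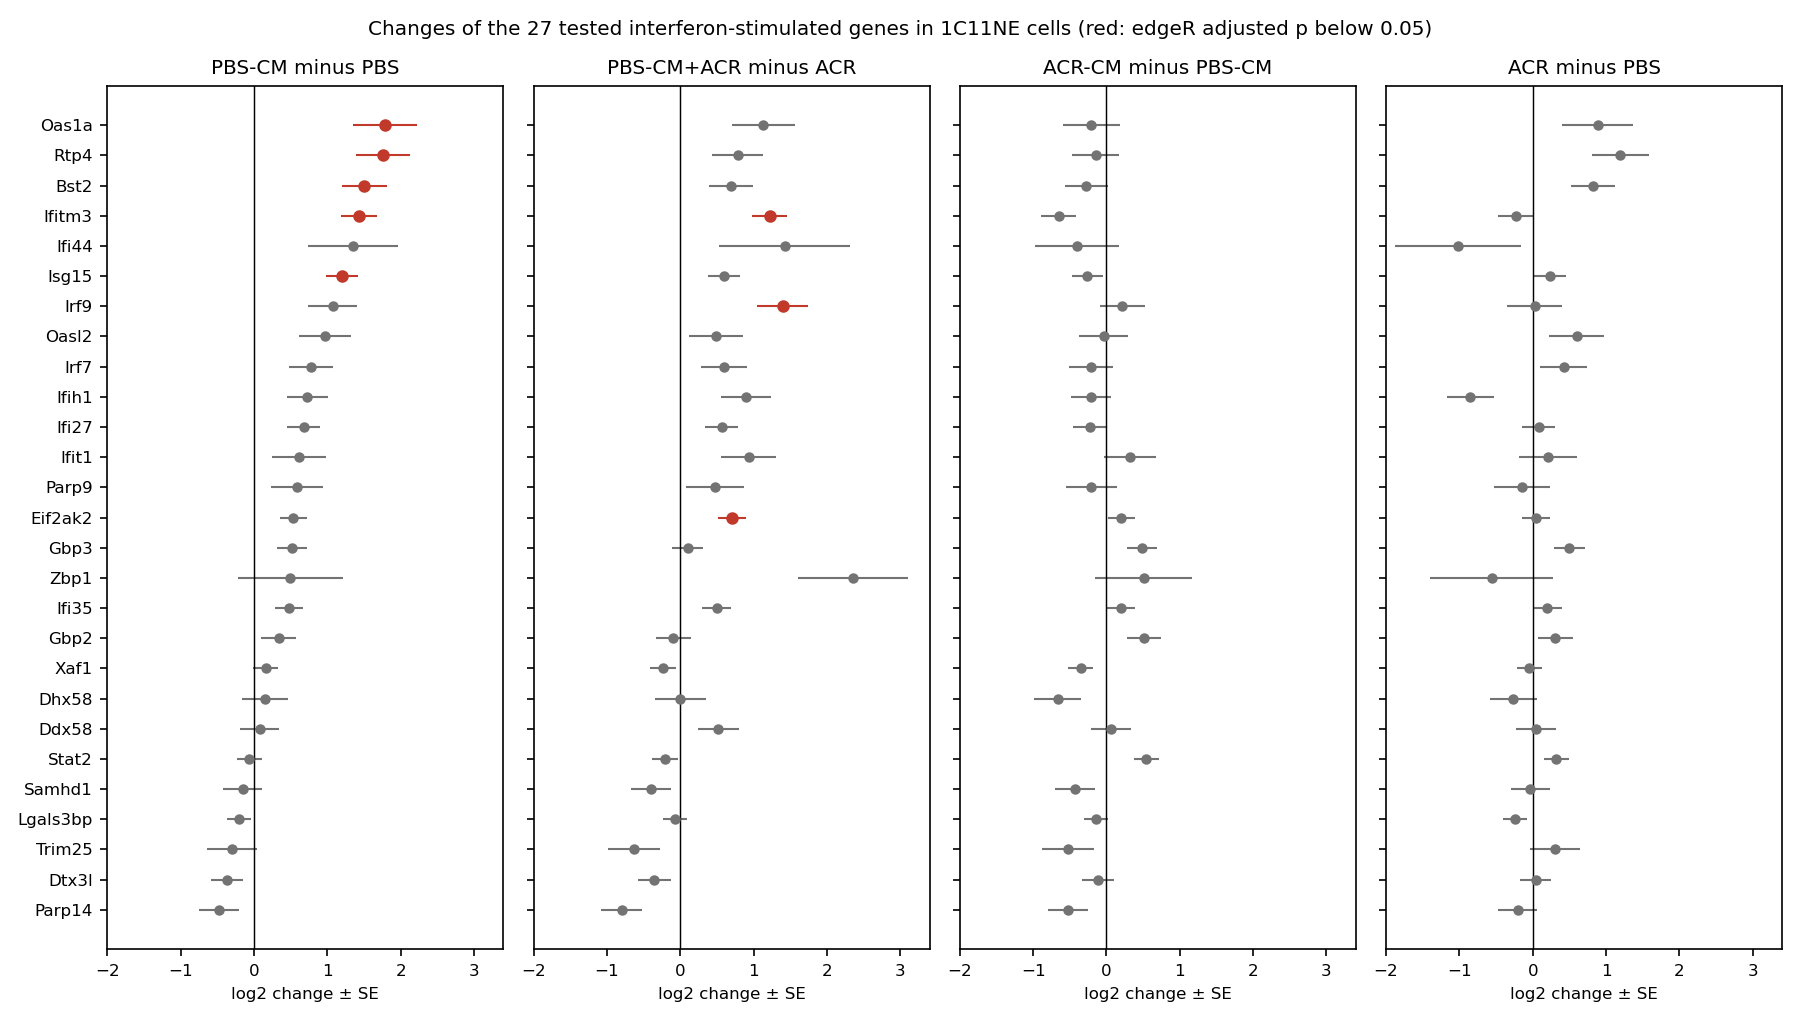
Log2 changes ± SE of the 27 tested members in 4 comparisons of 1C11NE cells, ordered by the change in PBS-CM minus PBS, with calls in red. The comparisons share libraries, so the panels are not independent; 5 members are red in the first panel, 3 in the second and 0 in the others.

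In BV2 cells acrylamide lowered 3 of 17 tested members and raised none. That is 17.6% lower, where 9.33% of the 10890 genes tested were called lower and 7.17% higher, and the median of the 17 was -0.08 against 0.03 over all genes. In BV2, 18 members had too few counts to be tested. They were Irf7, Ddx58, Ifih1, Zbp1, Oas2, Oasl2, Ifit1, Ifit3, Rsad2, Cmpk2, Mx1, Mx2, Gbp2, Gbp3, Isg15, Rtp4, Ifi44 and Lgals3bp. Xaf1, an interferon-induced binding partner of the apoptosis inhibitor XIAP, had 102, 76.2 and 95.4 CPM in BV2_ACR, against 198, 190 and 218 CPM in BV2_PBS. The groups lay far apart, and Xaf1 fell by 1.16 ± 0.13 (log2, adjusted p = 1.5e-05), to 0.449 of its level in BV2_PBS. Ifitm3 had 10.9, 8.66 and 10.6 CPM in BV2_ACR, against 23.8, 20.1 and 18.2 CPM in BV2_PBS (-1.05 ± 0.22, adjusted p = 0.0029). Both kept their calls without any of the 6 libraries in turn. Ifitm3 moved to -0.64 ± 0.22 with the length and GC offset, where its adjusted p of 0.050 lay just under the threshold before rounding.

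Ifi27, which codes for a mitochondrial membrane protein, had 68.9, 55.4 and 57.8 CPM in BV2_ACR, against 80.8, 91.7 and 72.4 CPM in BV2_PBS (-0.44 ± 0.14, adjusted p = 0.044). Its call was lost without BV2_PBS replicate 1 or 2 (adjusted p = 0.12 and 0.20), without BV2_ACR replicate 2 or 3 (0.17 and 0.13), with DESeq2 (0.058) and with the length and GC offset (0.23, at -0.24). Ribosomal protein genes moved with these short transcripts too, at 17.0, 15 and 14.1% of counts in BV2_ACR against 22.5, 22.6 and 20.2% in BV2_PBS, and their part in the result was not tested. Xaf1 has 4689 exon bases and was at -1.22 ± 0.13 with the offset. Bst2, the member with the highest count in BV2, had 718, 629 and 536 CPM in BV2_ACR against 686, 723 and 568 CPM in BV2_PBS (-0.08 ± 0.15, adjusted p = 0.76). Usp18, which removes ISG15 and damps receptor signalling, had 6.05, 3.46 and 2.52 CPM in BV2_ACR against 2.58, 1.30 and 2.2 CPM in BV2_PBS (0.96 ± 0.48, adjusted p = 0.19).

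The response of Xaf1 to acrylamide was called different between the lines, a call that was lost without any 1 of 9 of the 12 libraries (adjusted p up to 0.096). In 1C11NE cells Xaf1 had 49.5, 49.9 and 42.7 CPM in ACR, against 44.9, 55.7 and 44.9 CPM in PBS (-0.05 ± 0.17, adjusted p = 0.96). The effect in BV2 minus that in 1C11NE was -1.11 ± 0.24 in the fit of all 21 libraries (adjusted p = 0.028), the only call among 28 members, where 0.228% of 13569 genes were called lower and 0.339% higher. Bst2 differed by -0.91 ± 0.38 (adjusted p = 0.26) and was called as well without the 2 libraries that stood apart. Those libraries are in none of the groups compared and share only the estimate of spread and the scaling.

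**Figure D4:**
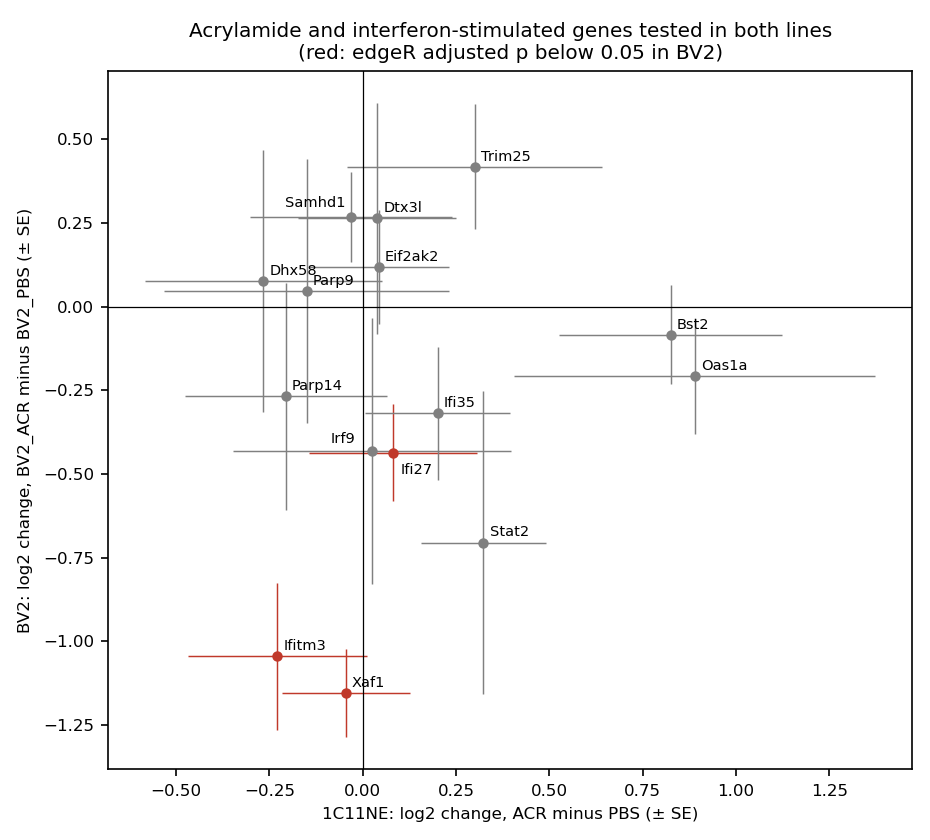
Log2 change with acrylamide ± SE in BV2 (vertical) against that in 1C11NE (horizontal) for the 15 members tested in both lines, with BV2 calls in red. Xaf1 lies at -1.16 in BV2 and at -0.05 in 1C11NE, and Bst2 at -0.08 and 0.82.

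The saline-treated lines differed at most interferon-stimulated genes, as they did at most genes of any kind. Set against PBS, BV2_PBS had 6 of 28 members higher (21.4%) and 14 lower, where 36.1% of all genes tested were called higher and 43.1% lower. Line and mouse strain cannot be told apart. The median was -1.11, against -0.25 over all genes. Scaling by raw totals in place of TMM would shift every gene by -0.63, and no called member changed direction under it.

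Of the 6 members that were higher in BV2, 3 differed with no overlap between the groups. The share of all genes without overlap was not computed for the 2 lines. Bst2 had 686, 723 and 568 CPM in BV2_PBS, against 36.5, 38.2 and 50.4 CPM in PBS (15.8-fold, 3.98 ± 0.30, adjusted p = 5e-11). Oas1a had 30.4, 28.5 and 28.1 CPM in BV2_PBS, against 1.07, 1.30 and 0.406 CPM in PBS (4.85 ± 0.32, adjusted p = 5e-12). Xaf1 was 4.15-fold higher (2.05 ± 0.17, adjusted p = 2.5e-10). For Bst2, Oas1a and Xaf1 the groups were far apart, whereas Oas3 (1.98 ± 0.80, adjusted p = 0.028), Usp18 (1.55 ± 0.71, adjusted p = 0.050, rounded from just below the threshold) and Irf9 (0.83 ± 0.38, adjusted p = 0.048) overlapped between the groups and lost their calls without several single libraries. Oas3 was lost without any PBS library (adjusted p = 0.071, 0.052 and 0.057) or BV2_PBS replicate 1 or 3 (0.051 and 0.28), Usp18 without PBS replicate 2 or 3 (0.15 and 0.14) or BV2_PBS replicate 1 or 3 (0.15 and 0.11), and Irf9 without PBS replicate 1 or 3 (0.11 and 0.17) or BV2_PBS replicate 1 or 3 (0.065 and 0.26).

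The guanylate-binding GTPases and the RNA sensors Ddx58, Ifih1 and Dhx58 were lower in BV2. Gbp2 had 0 counts in all 3 BV2_PBS libraries, against 14.3, 8.42 and 15 CPM in PBS, and was at least 41.6-fold lower with a floor of 3 counts over the BV2_PBS group. Ifih1 had 0 counts there too, against 3.20, 5.57 and 5.69 CPM in PBS, and was at least 16.1-fold lower by the same floor. Gbp3 had 0.573, 0.324 and 0 CPM in BV2_PBS, against 24.9, 17.4 and 23.8 CPM in PBS. Ddx58, the gene of RIG-I, changed by -3.32 ± 0.42 (adjusted p = 2.4e-07) and Dhx58, which codes for the regulatory sensor LGP2, by -2.34 ± 0.38 (adjusted p = 8.8e-06). A count of 0 limits the level to the floor and does not show that the gene is silent.

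Ifitm3 had 23.8, 20.1 and 18.2 CPM in BV2_PBS, against 189, 208 and 245 CPM in PBS (-3.37 ± 0.24, adjusted p = 1.5e-11). Isg15 had 6.30, 2.92 and 3.30 CPM in BV2_PBS, against 21.7, 17.5 and 24.4 CPM in PBS (-2.32 ± 0.28, adjusted p = 1e-07). Both were thus lower in the microglial line than in the 1C11NE cells without any BV2 medium. Lgals3bp, a secreted glycoprotein, had 0.859, 0.648 and 0.275 CPM in BV2_PBS against 55.4, 47.9 and 69.3 CPM in PBS (-6.55 ± 0.30, adjusted p = 1.8e-14). Parp14 (-3.18), Irf7 (-3.58), Stat2 (-1.57), Dtx3l (-1.20), Ifi35 (-1.01) and Ifit1 (-1.44) made up the rest of the decreases, of which Ifit1 lost its call without PBS replicate 1 (adjusted p = 0.083) or BV2_PBS replicate 3 (0.19). Trim25, Eif2ak2, Parp9, Samhd1, Ifi27, Oasl2, Rtp4 and Zbp1 were not called.

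**Figure D5:**
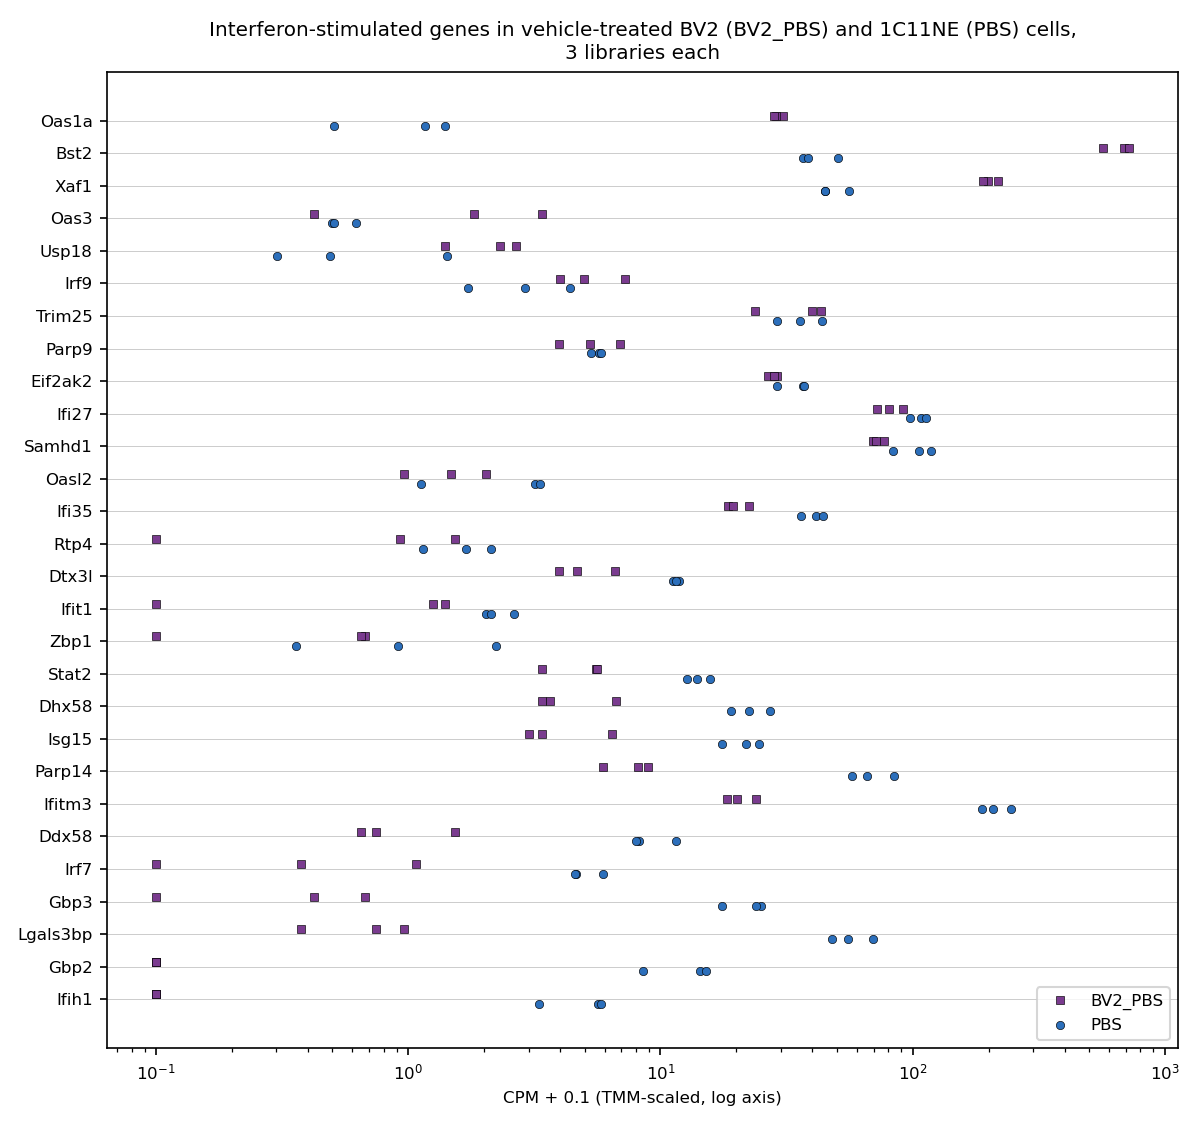
CPM + 0.1 on a log axis in the 3 BV2_PBS libraries (squares) and the 3 PBS libraries (circles) for the 28 members of the joint fit, ordered by the ratio of means. Oas1a, Bst2 and Xaf1 at the top lie higher in BV2_PBS, and Gbp2 and Ifih1 at the bottom sit at 0 counts in BV2_PBS.

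Several well-known targets of type I interferon were too low to test. Usp18, Oas2, Oas3, Ifit3, Rsad2, Cmpk2, Mx1 and Mx2 did not pass the filter in 1C11NE. In no group did Ifit3 average above 1.27 CPM, and Rsad2, which makes an antiviral nucleotide, stayed at or below 0.726 CPM in every library. Oas2, Ifit3, Rsad2, Cmpk2, Mx1 and Mx2 passed it in no fit. Mx1 and Mx2, GTPases against influenza and related viruses, had at most 0.609 and 0.757 CPM in any library.

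Other genes of the pathway were taken from lists chosen with earlier results known. Of 11 interferon genes 3 had a row (Ifnk, Ifnz and Ifnl2), none with more than 2 counts in a group. Of the 10 tested receptors, kinases and STATs, edgeR called 0 in PBS-CM against PBS, with 4 at an unadjusted p below 0.05, and DESeq2 called 3. In BV2_ACR against BV2_PBS edgeR called 1 higher, Jak1 (0.49 ± 0.16, adjusted p = 0.047), and DESeq2 called 0. In BV2_PBS against PBS, 0 of the 10 were higher and 7 lower, 4 of 10 other IRFs and negative regulators were higher and 6 lower, and 8 of 13 sensing and adaptor genes were higher and 2 lower, where 36.1% of all genes were called higher and 43.1% lower. Irf1, an early transcription factor of the pathway, had 53.8, 48.1 and 48.9 CPM in ACR against 28.5, 28.5 and 24.0 CPM in PBS (0.88 ± 0.15, adjusted p = 0.0035). Socs3, an inhibitor of JAK signalling, was higher in PBS-CM than in PBS (0.71 ± 0.18, adjusted p = 0.033) and lower in ACR-CM than in PBS-CM (-1.05 ± 0.18, adjusted p = 0.0094).

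Of 42 tested interferon-stimulated genes outside the members, PBS-CM raised 2 against PBS and lowered 1, with a median of 0.21, where 2.49% of all genes were called higher and 2.06% lower, shares close to those of this list. Gbp5 had 10.2, 11.7 and 12.1 CPM in PBS-CM against 5.33, 4.27 and 6.09 CPM in PBS (1.12 ± 0.25, adjusted p = 0.019). Herc6, the main ligase for ISG15 in mice, had 10.6, 11.5 and 10.9 CPM in PBS-CM against 4.67, 4.66 and 6.50 CPM in PBS (1.07 ± 0.24, adjusted p = 0.021). Adar, which edits double-stranded RNA, fell to 8.89, 7.52 and 7.85 CPM in PBS-CM, against 13.1, 15.3 and 15.8 CPM in PBS (-0.87 ± 0.20, adjusted p = 0.024). In BV2_ACR against BV2_PBS, 4 of 26 rose (Herc6, Rnf213, Lgals9 and Ifi30, by 1.30, 1.28, 0.96 and 0.65) and 2 fell (Slfn5 and Ifitm2, at -1.05 and -0.48), where 7.17% of all genes were called higher and 9.33% lower.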

How the data were processed

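RNA-seq was measured in 21 libraries of 7 groups, 3 each, grouped by sample title. The deposited values are raw whole-number read counts, 1 row per gene symbol. Poly(A) RNA was selected with oligo(dT) before enzymatic fragmentation and sequencing, per the labels' protocols. Bowtie2 2.2.5 is named in the submitters' processing notes. Genome build, annotation, counting program and strand use: not given in the sources used here.

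From the counts, edgeR 4.0.16 (R 4.3.3) scaled libraries by TMM, removed low genes with filterByExpr by group and ran the quasi-likelihood test with a robust prior and Benjamini-Hochberg adjustment. The 15 libraries of 1C11NE (12550 genes, biological coefficient of variation 0.211), the 6 of BV2 (10890 genes, 0.136) and all 21 jointly (13569 genes, 0.197) were fitted apart; the joint fit served comparisons between lines. Replicates differed by 2.53 to 60.6 times their sampling noise (chi-square over degrees of freedom), so none was counted as a repeat. The fits were tested on simulated data. Exon lengths and coordinates came from a GRCm38 annotation, promoters from RefSeq. The precision is limited by totals of 2762287 to 7391991 counts, and floors cover counting error only. Alternatives were relative log expression size factors, DESeq2 1.42.0, no filter, the compared libraries alone, a replicate block, CPM on raw totals, libraries left out and, added after seeing the data, a length and GC offset. The 2 libraries left out together were picked from the first principal component of these same counts. Named genes are all called members, with the rest given by count and range; members singled out without a call were chosen after their values were seen. The members and gene lists were chosen with earlier results of these data known. The result for 1 gene of the pathway lists is not reported here.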

Additional observations from a re-analysis of the deposited data

Results flagged for a closer look

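The effect of acrylamide on Xaf1 differed between the lines by a test of the difference itself. The effect in BV2 cells minus that in 1C11NE cells was -1.11 ± 0.24 on the log2 scale (edgeR adjusted p = 0.028). Xaf1 was lower in all 3 BV2_ACR libraries (76.2 to 102 CPM) than in all 3 BV2_PBS libraries (190 to 218 CPM), while ACR (42.7 to 49.9 CPM) and PBS (44.9 to 55.7 CPM) overlapped. The call was lost without 9 of the 12 libraries in turn, where the difference ran from -1.15 to -0.99. These were PBS replicates 1 and 3 (adjusted p = 0.093 and 0.077), ACR replicates 1 and 2 (0.085 and 0.090), BV2_PBS replicates 1, 2 and 3 (0.070, 0.057 and 0.070) and BV2_ACR replicates 2 and 3 (0.096 and 0.060).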

How the results depend on the processing

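Counts of called members depended on which libraries were used. In ACR against PBS, 1 member (Bst2) was called with no filter, with the compared libraries alone and with replicate 1 of PBS-CM and replicate 3 of PBS-CM+ACR left out, against 0 under the other settings. In PBS-CM against PBS the count of 5 became 7 with DESeq2 and 3 with the compared libraries alone. It became 13 without those 2 libraries, and 2 to 10 leaving out 1 library. In PBS-CM+ACR against ACR the count of 3 became 4 with DESeq2, 1 with the replicate block and 0 with the compared libraries alone. It became 15 without those 2 libraries, and 0 to 12 leaving out 1 library. In ACR-CM against PBS-CM, 1 (Ifitm3) was called with the length and GC offset and without those 2 libraries. The difference between lines, 1 member, became 0 with the replicate block, 2 without those 2 libraries and 0 to 1 leaving out 1 library. The median change in BV2_PBS against PBS, -1.11, ran from -1.70 to -0.99 leaving out 1 library. No called change of a member turned direction under the alternatives run. Among uncalled values near 0, Stat2 in PBS-CM against PBS was at -0.06 and at 0.18 with the offset, Samhd1 there at -0.16 and 0.09, and Bst2 in BV2_ACR against BV2_PBS at -0.08 and 0.22. The median of PBS-CM+ACR against PBS-CM, 0.01, ran from -0.06 to 0.12 leaving out 1 library.

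Calls over all genes in PBS-CM against PBS, 571, ran from 106 to 4479 (DESeq2 1282, no filter 1372, replicate block 309, offset 943, compared libraries alone 210). In PBS-CM+ACR against ACR, 497 became 877, 1080, 273, 955 and 151 in the same order and 3133 without the 2 libraries. In ACR against PBS, 148 became 336, 351, 112, 369, 362 and 554. In PBS-CM+ACR against PBS-CM, 47 became 130, 136, 21, 148, 0 and 62. In ACR-CM against PBS-CM, 116 became 305, 459, 56, 305, 15 and 174, and for the difference between lines 77 became 547, 234, 43, 309, 457 and 682. The cause of these moves was not tested. The replicate numbers were not taken as pairing samples: 8 of 30 pairs in 1C11NE and 1 of 3 in BV2 had a correlation of deviations above 0.1, and 9 of the 30 and 3 of the 3 correlated best with their own number. The block ended the calls of Irf9 (adjusted p = 0.071) and Eif2ak2 (0.086) in PBS-CM+ACR against ACR and of Xaf1 between the lines (0.062). It also ended the call of Irf9 in BV2_PBS against PBS (0.064). It changed no other count of members by more than 1.5 times. Mean levels moved by more than 1 SD in 40 of 161 cases when scaled by raw totals. Where totals are small, as for Rtp4 and Oas1a in 1C11NE, few counts limit precision.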
